A study of Mus musculus with 18 samples.

Results

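Ifitm1, Ifitm2 and Ifitm3 are the 3 members of the interferon-induced transmembrane family described here, out of 22997 nuclear genes counted in mouse embryo cells at the onset of gastrulation. The rows were taken by name. The cells in which they were read were grouped by stage and chosen by measured values, namely depth and detection of T, Mesp1, Foxa2 and Sox2. Transcripts of the 3 genes played no part in the grouping. Single cells came from C57BL/6 WT whole embryos at E6.75 (embryonic day), with 6 libraries, and E7.5, with 12 libraries, each of 96 used cell barcodes. The E6.75 embryos had lost their extraembryonic part before cells were picked by hand for CEL-Seq2. The E7.5 embryos kept their extraembryonic mesoderm, were pooled over 1 or 2 litters, and gave cells sorted by flow cytometry for the miniaturized mCEL-Seq2. Stage, cell collection, pooling and protocol therefore cannot be told apart in any comparison between stages. No treatment or allele separated the groups, and nothing in the labels tied a library to particular embryos, so p-values measure the spread between libraries, which may be partly technical.

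The Ifitm proteins are small membrane proteins that sit in the cell surface and in endosomes. Ifitm3 in particular is known for restricting the entry of enveloped viruses, and interferon signalling induces the family in most adult tissues. In the gastrulating mouse embryo, Ifitm1 and Ifitm3, also named fragilis2 and fragilis, are known for their expression in mesoderm and in the precursors of germ cells. T marks the primitive streak and the mesoderm that leaves it, Mesp1 marks nascent mesoderm, Foxa2 marks definitive endoderm, axial mesoderm and visceral endoderm, and Sox2 marks epiblast and neural ectoderm.

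The 3 genes lie within 55.9 kb of one another on chromosome 7 in the GENCODE M21 annotation of GRCm38. Ifitm2 (ENSMUSG00000060591.9) spans chr7:140954837-140955987 on the minus strand. Ifitm1 (ENSMUSG00000025491.14) spans chr7:140967221-140969825 on the plus strand. Ifitm3 (ENSMUSG00000025492.6) spans chr7:141009586-141010770 on the minus strand. The authors' own build was not given in the sources used here, so these positions describe the reference and not the deposited rows.

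The 3 promoters are shown because neighbouring genes of 1 family differed in how their transcripts were distributed over stages and cells. Each run holds 250 bases before and 50 bases after the RefSeq start, from GRCm38.p6, written 5′ to 3′ on the strand of the gene. They cover chr7:140967826-140968125 for Ifitm1, chr7:140955912-140956211 for Ifitm2 and chr7:141010695-141010994 for Ifitm3. Capitals mark GAAANNGAAA, the core of the interferon-stimulated response element, searched on both strands.
Ifitm1: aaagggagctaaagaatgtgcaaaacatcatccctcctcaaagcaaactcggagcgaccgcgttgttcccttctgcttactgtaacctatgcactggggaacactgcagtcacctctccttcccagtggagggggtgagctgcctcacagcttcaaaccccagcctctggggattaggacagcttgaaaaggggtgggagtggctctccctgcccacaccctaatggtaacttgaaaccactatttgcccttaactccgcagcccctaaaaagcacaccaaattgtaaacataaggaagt
Ifitm2: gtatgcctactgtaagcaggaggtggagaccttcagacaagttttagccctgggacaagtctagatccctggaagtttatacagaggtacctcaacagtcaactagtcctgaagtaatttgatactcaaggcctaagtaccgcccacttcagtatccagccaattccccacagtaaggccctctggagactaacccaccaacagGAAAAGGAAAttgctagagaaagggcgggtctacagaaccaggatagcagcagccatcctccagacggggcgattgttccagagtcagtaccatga
Ifitm3: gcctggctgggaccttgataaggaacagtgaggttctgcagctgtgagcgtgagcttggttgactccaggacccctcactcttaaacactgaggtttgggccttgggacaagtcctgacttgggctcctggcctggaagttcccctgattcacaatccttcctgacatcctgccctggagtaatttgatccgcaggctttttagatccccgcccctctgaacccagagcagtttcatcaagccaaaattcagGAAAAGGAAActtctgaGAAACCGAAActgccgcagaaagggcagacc
The element core stood at 1 place in the Ifitm2 window, starting 46 bases before the start, and at 2 places in the Ifitm3 window, starting at bases 3 and 20 of the transcript. It was in 3.44% of all 32851 promoters of the same length. These letters were not in the Ifitm1 window. That window lies wholly inside the GENCODE span of Ifitm1, which begins at chr7:140967221, so the bases before that annotated end were not searched. A T-box site, GGTGTGA, and the TCF/LEF letters CTTTGAA or CTTTGAT were in none of the 3 windows, and in 3.98% and 8.65% of all promoters.

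Sequence likeness limits how well reads can be given to 1 member. The last 400 bases of the longest annotated transcripts were 72.7% identical between Ifitm1 and Ifitm2, 66.2% between Ifitm1 and Ifitm3, and 65.9% between Ifitm2 and Ifitm3. Anywhere in the annotated transcripts, the longest stretches shared without a mismatch were 40, 64 and 69 bases. Their distance from the 3′ end was not computed. A read inside such a stretch could have been counted for either gene, and how the authors treated such reads was not given in the sources used here. Each molecule was counted by a tag at its 3′ end, so levels, given as CPM (counts of a gene scaled to a common total of transcripts), do not scale with gene length.

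Kept cells held at least 2000 nuclear transcripts: 543 of 576 used barcodes at E6.75 and 429 of 1152 at E7.5. E7.5 replicate 5 had 0 such cells and entered nothing. Median depth of kept cells ran from 22331 to 54686 transcripts over the E6.75 libraries and from 18982 to 57140 over the 11 E7.5 libraries. The barcode set is reused in every library and marks a well, so a barcode shared by libraries does not mark a shared cell. Labelled tissue was checked against markers fixed as lists: 537 of the 543 E6.75 cells and 286 of the 429 E7.5 cells held at least 3 of 6 epiblast markers. At least 2 of 6 lateral or extraembryonic mesoderm markers were found in 47 and 177 cells, and at least 5 of 9 visceral endoderm markers in 52 and 2 cells. The epiblast bar does not set epiblast apart from other cells. At E6.75, all 111 cells with Foxa2 and no Mesp1 met it. At E7.5, 85 of 125 cells with Mesp1 and no Foxa2 did.

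Ifitm1 rose steeply between the stages, Ifitm2 rose by less, and Ifitm3 did not pass the test. Over all kept cells of a library, Ifitm1 at E6.75 had a minimum of 8.22 CPM, a median of 14.5 and a maximum of 34.0, from 486 transcripts in all. Replicates 2_13 and 2_14 were the highest. At E7.5 the lowest library held 186, the median 248 and the highest 379 CPM, so the stages did not overlap. The E6.75 mean was 18.1 ± 10.7 CPM (SD, n = 6), and the E7.5 mean was 259 ± 67.3 CPM (SD, n = 11). The log2 fold change was 3.73 with a standard error (SE) of 0.267 (edgeR quasi-likelihood test, Benjamini-Hochberg adjusted p = 3.29e-09). Of 9998 genes tested, 38.8% passed at 0.05 in this comparison, so passing alone sets Ifitm1 little apart. By size of change, it stood at place 47 of 5266 genes that were higher at E7.5.

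Ifitm2 was the most even member over libraries. At E6.75 it ran from 63.3 through a median of 65.1 to 76.1 CPM, and at E7.5 from 81.4 through 108 to 159 CPM. The ranges did not overlap, and the change was 0.65 on the log2 scale (SE 0.132, edgeR adjusted p = 0.00057). Ifitm3 ran from 13 through 16.7 to 21 CPM at E6.75 and from 5.08 through 12.7 to 23.0 at E7.5. Its ranges overlapped, and the change of −0.32 (SE 0.193) did not pass (adjusted p = 0.197). Ifitm1 made up 19.7% of the transcripts of the 3 members at E6.75 and 68.2% at E7.5, while the part of Ifitm2 was 64.1% and 28.0%.

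**Figure D1:**
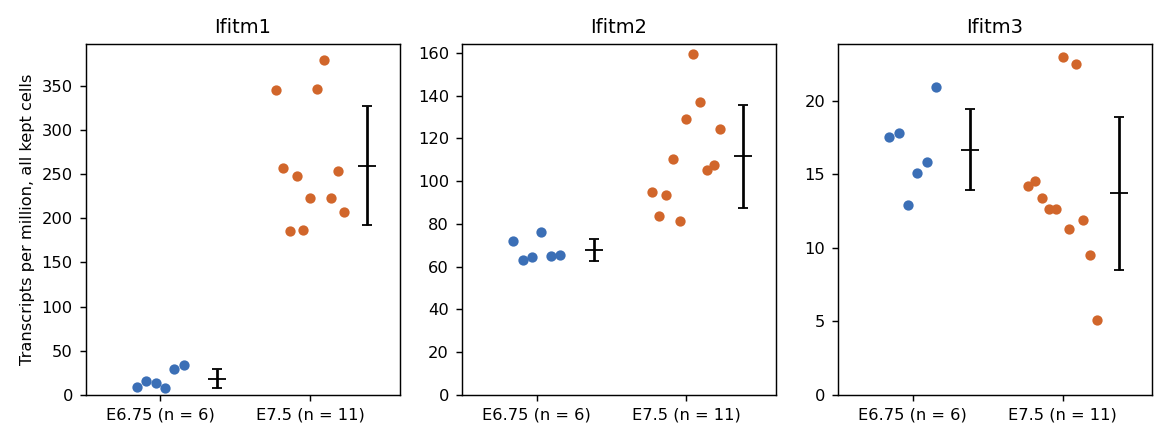
Transcripts CPM of each member over all kept cells of a library, by stage. Each point is 1 library, and the cross with bars gives mean ± SD. Every E7.5 library stands above every E6.75 library for Ifitm1 (186 to 379 against 8.22 to 34.0) and Ifitm2, while the ranges of Ifitm3 overlap.

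Cells were next split into 4 classes to ask in which cells the transcripts lay. The Mesp1 class held cells with a Mesp1 transcript and none of Foxa2, and the Foxa2 class the reverse. The T class held cells with T and neither Mesp1 nor Foxa2, and the Sox2 class cells with Sox2 and none of the other 3. At E7.5 the Mesp1, Foxa2 and Sox2 classes held 125, 49 and 70 cells, and the T class held 1 cell more than the Mesp1 class. The levels of the classes come from the same libraries. Classes of a library with under 3 cells were left out.

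Ifitm1 at E7.5 was highest in the Mesp1 class. Its 11 libraries ran from 246 through a median of 444 to 1140 CPM, with a mean of 561 ± 282 (SD, n = 11). The Foxa2 class ran from 48.5 through 138 to 308 CPM (mean 149 ± 92.8, SD, n = 8). The T class ran from 21.4 through 94.7 to 417 CPM (mean 143 ± 115, SD, n = 10). The Sox2 class was lowest, from 12.8 through 50.2 to 69.7 CPM (mean 48.1 ± 19.8, SD, n = 6). The Mesp1 and Sox2 classes did not overlap, whereas the T and Foxa2 classes, neighbours in this order, lay within each other's spread. The 12 E7.5 cells with both Mesp1 and Foxa2 are in no class. They held 461 CPM of Ifitm1 summed over cells, against 459 in the Mesp1 class.

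In the test over libraries, Ifitm1 was higher in the Mesp1 class than in the Sox2 class by 3.81 on the log2 scale (SE 0.346, edgeR adjusted p = 8.35e-11), with the same direction in 6 of 6 libraries that held both. Among 7562 genes, 6.76% passed, and Ifitm1 had place 6 by p-value. Against the T class, Ifitm1 in the Mesp1 class was higher by 2.21 (SE 0.230, adjusted p = 3.80e-09), in 9 of 10 libraries, where 4.44% of genes passed. The exception was replicate 9, whose T class held 3 cells and 8 Ifitm1 transcripts. Against the Foxa2 class the difference was 2.00 (SE 0.262, adjusted p = 3.41e-07), in 8 of 8 libraries, where 8.05% passed. Leaving out replicate 4 moved the Mesp1 to Sox2 difference to 3.22, which still passed.

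Between the T and Sox2 classes, Ifitm1 was also higher, by 1.61 (SE 0.393, adjusted p = 0.0318), where 0.714% of genes passed. All 5 libraries with both classes had this direction, but the ranges of the classes overlapped. This call rested on replicate 4, without which the difference was 1.02 (adjusted p = 0.535). It was also lost with DESeq2 (adjusted p = 0.219), without the library as a block (0.114), without replicate 6 (0.0532), and in cells of at least 5000 transcripts (0.0800).

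Ifitm2 differences between the classes did not pass the test at E7.5. The means were 115 ± 29.5 CPM in the Mesp1 class (SD, n = 11), 121 ± 73.7 in the T class (n = 10), 109 ± 27.0 in the Foxa2 class (n = 8) and 139 ± 50.8 in the Sox2 class (n = 6). Its log2 differences were −0.12 (SE 0.183) between Mesp1 and Sox2, −0.27 (SE 0.186) between T and Sox2, 0.15 (SE 0.150) between Mesp1 and T, and 0.17 (SE 0.178) between Mesp1 and Foxa2. None passed, with adjusted p from 0.696 to 0.851.

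Ifitm3 was sparse, with 195 transcripts in all E7.5 cells, and its differences were imprecise. The means were 14.6 ± 5.75 CPM in the Mesp1 class (SD, n = 11), 26.7 ± 29.8 in the T class (n = 10), 11.3 ± 13.9 in the Foxa2 class (n = 8) and 7.90 ± 6.16 in the Sox2 class (n = 6). The log2 difference was 1.20 (SE 0.583, adjusted p = 0.287) between Mesp1 and Sox2 and 1.62 (SE 0.568, adjusted p = 0.262) between T and Sox2. Between Mesp1 and T it was −0.42 (SE 0.371, adjusted p = 0.730), and between Mesp1 and Foxa2 it was 0.70 (SE 0.513, adjusted p = 0.519). The highest T class value, 104 CPM in replicate 9, stood for 2 transcripts in 19192.

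**Figure D2:**
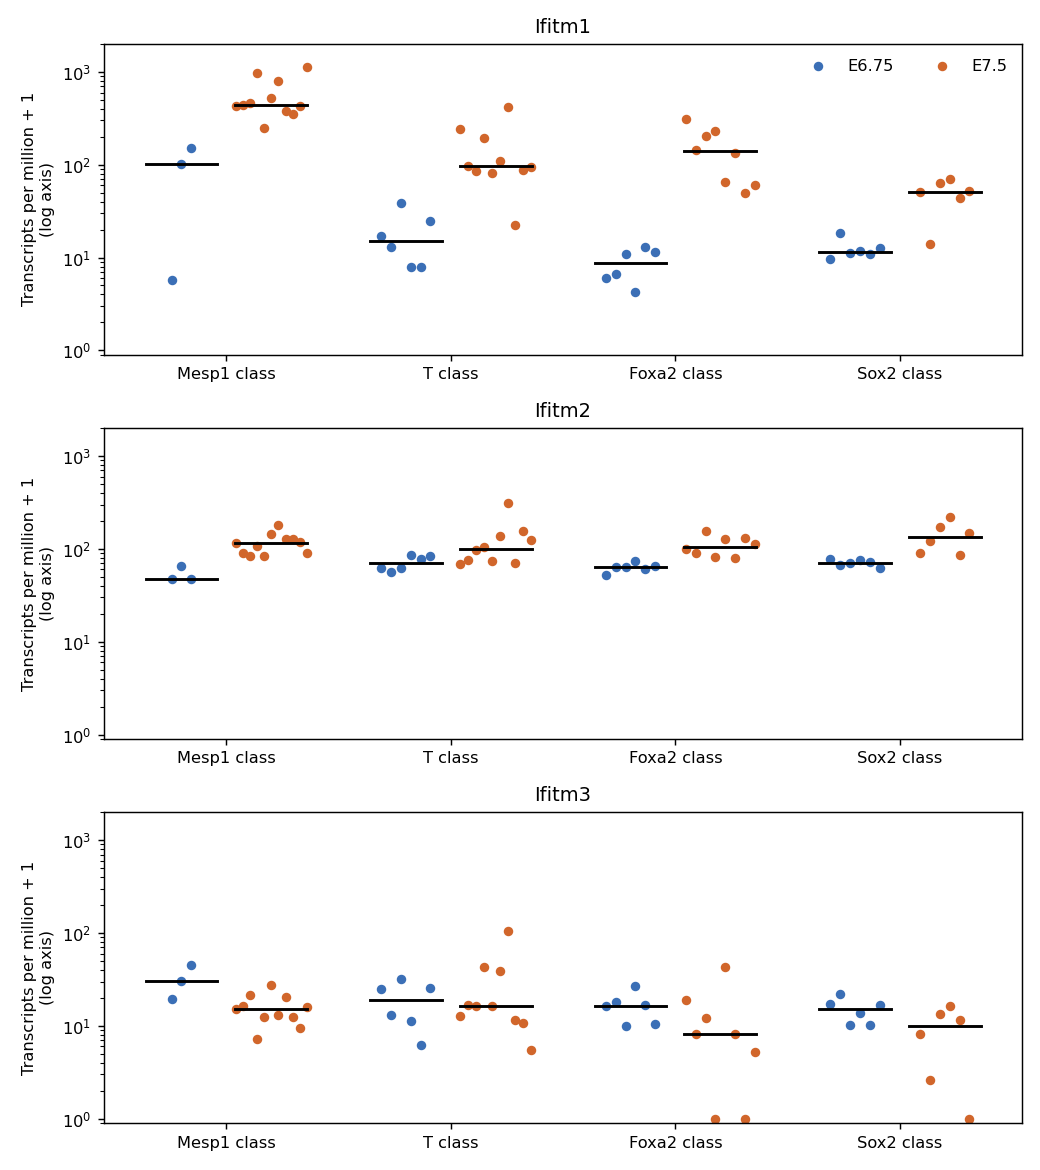
Transcripts CPM plus 1, on a log axis, for each member in each class. A point is 1 library with at least 3 cells of the class, and a black bar marks the median. Ifitm1 of the E7.5 Mesp1 class lies at 246 to 1140 CPM, above the whole E7.5 Sox2 class, while the Ifitm2 classes of a stage overlap.

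At E6.75 the classes held 29 Mesp1, 111 Foxa2, 73 T and 216 Sox2 cells, and the Mesp1 class was present in only 3 libraries. Ifitm1 in that class was 4.68 CPM in replicate 2_9 (3 cells), 102 in 2_13 (15 cells) and 150 in 2_14 (11 cells). The Sox2 class of the 6 libraries ran from 8.59 through 10.5 to 17.2 CPM, so replicates 2_13 and 2_14 were above it and 2_9 was below. The T class ran from 6.88 through 14.1 to 37.3, and the Foxa2 class from 3.22 through 7.76 to 12.1 CPM. Summed over cells, the 21 E6.75 cells with both Mesp1 and Foxa2 held 43.6 CPM, against 107 in the Mesp1 class and 9.49 in the Foxa2 class. Replicates 2_13 and 2_14 were also the deepest, with medians of 54686 and 53967 transcripts per kept cell.

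In the fit over all E6.75 classes, Ifitm1 was higher in the Mesp1 class than in the Sox2 class by 2.84 (SE 0.402, edgeR adjusted p = 1.56e-05, 2 of 3 libraries), where 3.51% of 9129 genes passed. Without replicate 2_14 the difference was 2.24 (adjusted p = 0.0344). Against the Foxa2 class it was higher by 3.24 (SE 0.411, adjusted p = 2.00e-06, 2 of 3 libraries), where 3.32% passed. In the T class it differed from the Sox2 class by 0.53 (SE 0.396, adjusted p = 0.915), with 3 of 6 libraries in each direction and 0.646% of genes passed.

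Ifitm3 at E6.75 was 18.7, 29.5 and 44.6 CPM in the Mesp1 class of replicates 2_9, 2_13 and 2_14. It exceeded the Sox2 class (9.20 to 20.9) by 1.42 (SE 0.385, adjusted p = 0.0284), with 3 of 3 libraries higher. The call was lost with DESeq2 (adjusted p = 0.0533), without the block (0.108), without replicate 2_13 (0.166), without 2_14 (0.379), and with gates at 2 transcripts (0.0514). The difference from the Foxa2 class was 1.30 (SE 0.387) and did not pass (adjusted p = 0.0564). Ifitm2 did not pass in either comparison, with −0.38 (SE 0.184, adjusted p = 0.360) against Sox2 and −0.17 (SE 0.188, adjusted p = 0.816) against Foxa2. T class differences from Sox2 were 0.04 (SE 0.126, adjusted p = 0.996) for Ifitm2 and 0.39 (SE 0.312, adjusted p = 0.925) for Ifitm3.

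Whether the T class stood apart from the Sox2 class by a different amount at the 2 stages was tested as an interaction over 11 libraries. The difference of differences was 0.97 (SE 0.490) for Ifitm1, −0.15 (SE 0.225) for Ifitm2 and 1.82 (SE 0.666) for Ifitm3. None passed (adjusted p = 0.820, 0.980 and 0.638), and 0.116% of 8587 genes did.

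**Figure D3:**
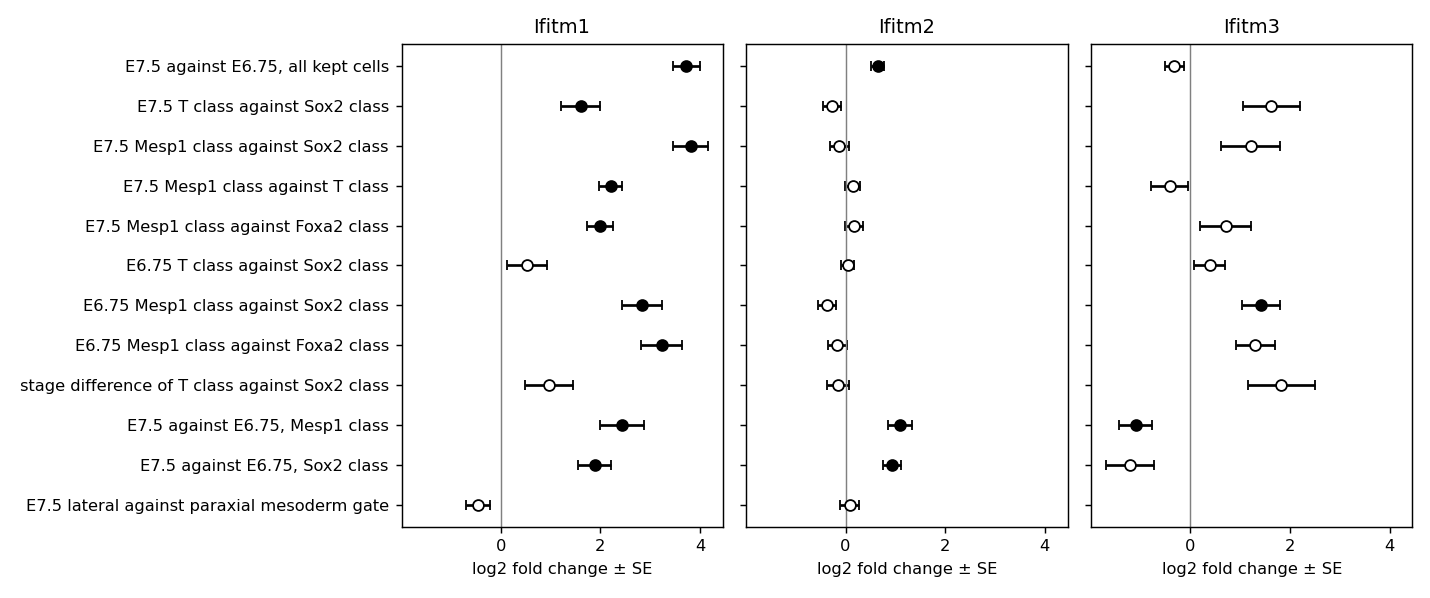
Log2 fold changes of the 3 members in each comparison, with bars of 1 SE. Filled points passed at an adjusted p of 0.05 (edgeR), open points did not. Ifitm1 is filled in both Mesp1 comparisons of E6.75 and in all E7.5 class comparisons, while Ifitm2 is filled only between stages. Ifitm3 is not drawn for the gates of lateral and paraxial mesoderm, where it was too sparse to be tested.

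Within a class, the stages differed as well. In the Mesp1 class, Ifitm1 rose from 4.68 to 150 CPM over 3 libraries at E6.75 to 246 to 1140 over 11 at E7.5, by 2.44 (SE 0.447, adjusted p = 0.00129), where 11.3% of 6980 genes passed. Ifitm2 rose in the same class by 1.09 (SE 0.241, adjusted p = 0.00489), from 46.3 to 63.9 CPM at E6.75 to 82.6 to 179 at E7.5, with no overlap. Ifitm3 fell by 1.10 on the log2 scale (SE 0.330, adjusted p = 0.0335), with ranges that overlapped, 18.7 to 44.6 and 6.25 to 26.4 CPM. That last call was lost without replicate 2_13 or 2_14, without E7.5 replicate 1 or 6, with no filter on low counts and with gates at 2 transcripts (adjusted p from 0.0501 to 0.334).

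In the Sox2 class, Ifitm1 rose by 1.89 (SE 0.333, adjusted p = 0.000392) and Ifitm2 by 0.93 (SE 0.186, adjusted p = 0.00117), where 17.2% of 7539 genes passed. The ranges of Ifitm1 overlapped, at 8.59 to 17.2 and 12.8 to 69.7 CPM. Those of Ifitm2 did not, at 61.9 to 77.3 and 85.2 to 217 CPM. Ifitm3 changed by −1.22 (SE 0.478), which did not pass (adjusted p = 0.0846). The Foxa2 class did not overlap between stages for Ifitm1, at 3.22 to 12.1 and 48.5 to 308 CPM. For the T class the ranges of Ifitm1 overlapped, at 6.88 to 37.3 and 21.4 to 417 CPM.

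Detection in single cells followed depth, so cells were thinned to 2000 transcripts. Ifitm1 was then found in 48.3% ± 13.3 of Mesp1 class cells at E7.5 (mean over libraries ± SD, n = 11), 25.0% ± 19.8 of T class cells (n = 10), 20.2% ± 13.8 of Foxa2 class cells (n = 8) and 5.16% ± 8.03 of Sox2 class cells (n = 6). Without thinning the same shares were 89.1%, 76.0%, 89.1% and 61.9%. At E6.75 the thinned shares were 8.89% ± 15.4 in the Mesp1 class (n = 3) and 1.32% ± 1.59 in the Sox2 class (n = 6). Cells with visceral endoderm markers, a type not known for Ifitm1, held it in 1 of 52 cells after thinning at E6.75 and in 6 of 52 (11.5%, exact 95% interval 4.35% to 23.4%) before it, at a median depth of 25928 transcripts. The thinned E6.75 Sox2 share rests on 4 of 216 cells. Without thinning, Ifitm1 was found in 35.2% of Sox2 class cells (exact 95% interval 28.8% to 42.0%) at a median depth of 46917 transcripts, and its summed level was 11.8 CPM (exact Poisson 95% interval 9.81 to 14.1) against 5.81 (2.66 to 11) in the cells with visceral endoderm markers.

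Before thinning, the median Mesp1 class cell of E7.5 held 11 Ifitm1 transcripts and the highest 71, against 4 and 15 for Ifitm2 and 0 and 5 for Ifitm3. The 5 E7.5 cells with the most Ifitm1 transcripts were all in the Mesp1 class, with 65 to 71 transcripts each, and all 5 held 4 or 5 paraxial mesoderm markers. The same cells held 2, 0, 4, 2 and 4 lateral or extraembryonic mesoderm markers, so 4 of the 5 met the bar of both lists. The 5 were ranked by transcripts and not by CPM. Their depths ran from 56793 to 91340 transcripts, against a class median of 39912, and detection of markers follows depth too. In the whole class, 51.2% of cells held at least 2 paraxial markers. Of the 125 Mesp1 class cells, 45 held all 3 members, 63 held 2 of them and 4 held none. Per-cell ranks of Ifitm1 and Ifitm2 in this class had a Spearman rho of 0.12 over the 125 cells, which share libraries and sparse counts and are a description only.

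T detection split the E6.75 Mesp1 class. The 19 cells with both Mesp1 and T held 170 Ifitm1 transcripts, or 159 CPM (exact Poisson 95% interval 136 to 185, counting error only). The median cell held 3, and 5 cells with 17 to 34 each held 121 of the 170, which left 68.4 CPM in the other 14. The 10 cells with Mesp1 and no T held 5, or 8.85 CPM (2.87 to 20.6). In replicate 2_13, the 1 library with at least 3 cells of each kind, the levels were 185 and 10.3 CPM, so the split was no smaller within a library. At E7.5 the levels were 468 CPM in 108 cells with T and 384 CPM in 17 without. No test was made of this split, which was noticed after the values were seen.

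Cells were also ordered by how much T or Mesp1 they held. All kept cells entered, so a T bin can hold cells with Mesp1. At E6.75, Ifitm1 was 10.4 ± 3.33 CPM in cells without T (SD, n = 6) and 10.5 ± 5.10 in cells with T under 100 CPM (n = 6). It was 58.8 ± 53.5 at 100 to 300 CPM of T (n = 5) and 89.0 ± 4.05 above that (n = 2). The 19 Mesp1 class cells with T held 170 Ifitm1 transcripts, against 66 in the 73 T class cells of E6.75. The mean of that T class was 17.2 ± 11.7 CPM (SD, n = 6). Ifitm1 by T level was not tested apart from Mesp1. Of the 40 cells in the top T bin, replicates 2_13 and 2_14 held 18 and 15, and no other library had at least 3. In those replicates, Ifitm1 was 70.6 and 140 CPM at 100 to 300 CPM of T and 91.8 and 86.1 above it. The upper bins thus show no common rise within those libraries. By Mesp1 at E7.5, Ifitm1 was 137 ± 91.5 CPM in cells without it (n = 11), 396 ± 116 below 100 CPM (n = 9), 594 ± 285 at 100 to 300 (n = 7) and 519 ± 577 above (n = 5). Ifitm3 at E6.75 was 14.3 ± 3.15 CPM without T (n = 6) and 45.5 ± 11.5 at 300 CPM of T or more (n = 2). The top Mesp1 bin of E7.5 spread from 164 to 1511 CPM of Ifitm1 over its libraries, and its mean lay within the spread of the bin before it, which held partly other libraries. Replicate 2 stood at 546 CPM in both. Replicates 6 and 9 went from 310 and 464 CPM in the bin before it to 188 and 185 in the top bin.

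**Figure D4:**
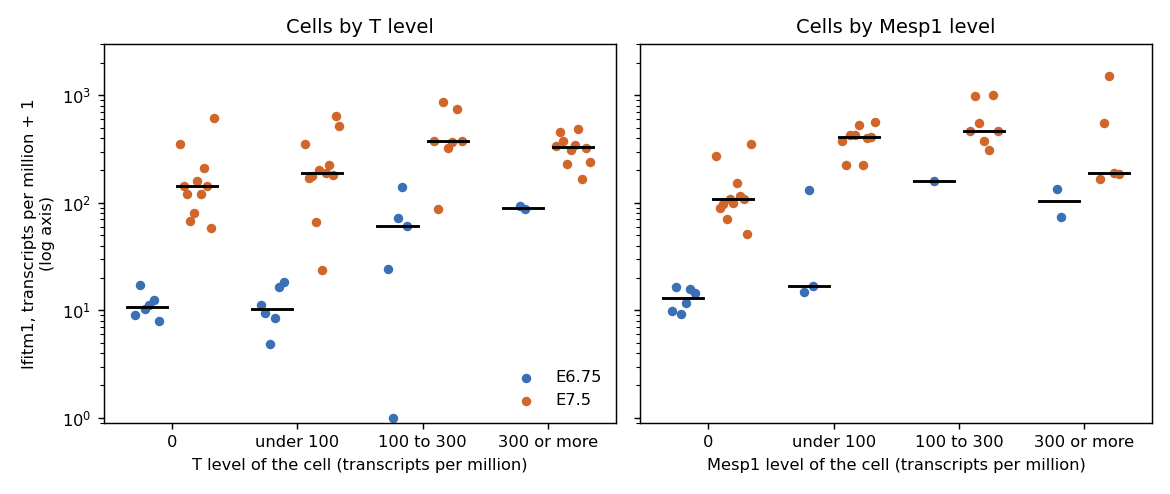
Ifitm1 transcripts CPM plus 1, on a log axis, in all kept cells binned by their T level (left) or Mesp1 level (right), by stage. A point is 1 library with at least 3 cells in the bin, and a black bar marks the median. At E6.75 Ifitm1 is near 10 CPM on average below 100 CPM of T, while at E7.5 it is spread over all T bins.

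Kinds of mesoderm were compared at E7.5 by gates. The lateral gate held cells with Hand1 or Foxf1 and neither Tcf15 nor Meox1, and the paraxial gate the reverse. Hand1 and Foxf1 mark lateral and extraembryonic mesoderm, and Tcf15 and Meox1 mark paraxial mesoderm. Ifitm1 in the 5 libraries with both was 299, 268, 187, 307 and 210 CPM in the lateral gate of replicates 1, 2, 3, 4 and 7, and 439, 478, 339, 534 and 86.2 in the paraxial gate. It was thus lower in the lateral gate in 4 of 5 libraries, and replicate 7, with 3 paraxial cells, went the other way.

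The difference was −0.45 on the log2 scale (SE 0.234, edgeR adjusted p = 0.658), where 0.971% of 6693 genes passed. Without replicate 7 it was −0.77 (adjusted p = 0.0106), and with at least 5 cells a gate −0.74 (adjusted p = 0.00727). Ifitm2 differed by 0.09 (SE 0.193, adjusted p = 0.973). Ifitm3 had 99 transcripts in 174 lateral cells and 11 in 35 paraxial cells, or 16.4 and 8.49 CPM, and did not pass the filter on low counts.

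By marker lists, which can put a cell in several groups, Ifitm1 at E7.5 was 593 ± 220 CPM in cells with at least 2 of 6 paraxial markers (SD, n = 11) and 322 ± 118 with at least 2 of 6 lateral or extraembryonic mesoderm markers (n = 11). It was 289 ± 112 in cells with node and notochord markers (n = 3) and 219 ± 184 with definitive endoderm markers (n = 8). Cells with neural ectoderm markers held 247 ± 156 CPM (n = 11), with epiblast markers 244 ± 81.6 (n = 11) and with blood or endothelium markers 265 ± 115 (n = 10). The ranges of mean ± SD of these groups and of the lateral one overlapped, and they share cells. The paraxial range overlapped all of them but that of epiblast markers. Of the 105 cells with paraxial markers, 69 held Mesp1, against 73 of the 177 with lateral or extraembryonic mesoderm markers. Of the 185 cells with neural ectoderm markers, 108 held T and 50 held Mesp1. Of the 286 with epiblast markers, 186 held T and 95 held Mesp1. The Sox2 class, which leaves out cells with either gene, held 48.1 ± 19.8 CPM (n = 6). The 47 E7.5 cells with none of the 4 gate genes held Ifitm1 at 308 ± 212 CPM (n = 8 libraries), and 25 of them had lateral or extraembryonic mesoderm markers. At E6.75, cells with visceral endoderm markers held 5.81 CPM of Ifitm1, 34.8 of Ifitm2 and 5.16 of Ifitm3, summed over 52 cells. These cells made up 33 of the 111 in the E6.75 Foxa2 class, and their part in the Foxa2 comparison was not tested beyond leaving them out, which kept the direction and call of Ifitm1.

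Germ cell precursors were looked for with 5 markers, Prdm1, Prdm14, Dppa3, Nanos3 and Tfap2c, and 17 E6.75 and 3 E7.5 cells held at least 2 of them. The 3 E7.5 cells held 14 of the 195 Ifitm3 transcripts of that stage, or 417 CPM, 35 Ifitm1 transcripts, or 1043 CPM, and 6 of Ifitm2. Both E7.5 cells with 4 of the 5 markers were T class cells of replicate 4, with 613 and 1824 CPM of Ifitm1 and 817 and 995 CPM of Ifitm3 at depths of 4893 and 6032 transcripts. They carried 14 of the 70 Ifitm1 transcripts and 10 of the 15 Ifitm3 transcripts in the T class of that replicate. Its other 19 cells held 161 CPM of Ifitm1 in place of 195, and 14.3 CPM of Ifitm3 in place of 41.7, a value that enters the T class mean and the T to Sox2 difference of Ifitm3. At E6.75, 1 cell held 4 of the markers, a Mesp1 class cell of replicate 2_14, with 31 Ifitm1 transcripts (636 CPM) and 8 of Ifitm3 (164 CPM). That cell held 31 of the 91 Ifitm1 and 8 of the 27 Ifitm3 transcripts in the Mesp1 class of 2_14. It was also 1 of the 5 cells with most Ifitm1 among those with Mesp1 and T. The E6.75 Mesp1 levels and comparisons include it and were not repeated without it. The other 16 E6.75 cells held between 0 and 10 Ifitm1 transcripts each. With so few cells these are descriptions without a test.

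Unequal change of the members was tested within libraries as the class difference of 1 member minus that of another, on log2(CPM + 1), with exact two-sided sign-flip tests over libraries. Between the Mesp1 and Sox2 classes of E7.5, Ifitm1 moved more than Ifitm2 by 4.11 ± 1.35 (SD, n = 6, exact p = 0.0312, adjusted p = 0.141) and more than Ifitm3 by 2.73 ± 1.56 (exact p = 0.0312, adjusted p = 0.141). Both went the same way in 6 of 6 libraries, and 0.0312 is the smallest p that 6 libraries allow. Adjusted over 9 tests, none passed. Between the T and Sox2 classes, 5 libraries at E7.5 cannot go below 0.0625, and Ifitm1 exceeded Ifitm2 by 1.41 ± 1.53 in 5 of 5 (exact p = 0.0625, adjusted p = 0.188).

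Interferon-stimulated genes were read from a list. Of its 25 genes, 23 had a row and 9 could be tested between stages, of which 1 rose and 2 fell. That count is near the share of all genes that passed in this comparison, 38.8%, and says nothing particular about the list. B2m, the light chain of class I histocompatibility molecules, rose by 1.05 (SE 0.174, adjusted p = 7.04e-05). Irf1, an interferon-induced transcription factor, fell by 1.62 (SE 0.251, adjusted p = 3.45e-05), and Psmb8, an immunoproteasome subunit, fell by 2.59 (SE 0.287, adjusted p = 6.09e-07). The median change of the 9 was −0.24, against 0.03 over all genes tested.

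Between the Mesp1 and Sox2 classes of E7.5, none of 5 testable genes of that list passed with edgeR (1 at an unadjusted p under 0.05), at −1.47 to 0.40 with a median of −0.48 against 0.02 over all genes. Over all genes 6.76% passed there, so none of 5 says nothing particular about the list. Between the Mesp1 and T classes, Bst2, a membrane tether of budding viruses, was lower by 1.76 (a log2 change of −1.76, adjusted p = 0.00874), and at E6.75 Psmb8 was higher in the T than in the Sox2 class by 1.57 (adjusted p = 0.0121). These were 1 of 5 and 1 of 8 testable genes of the list, where 4.44% and 0.646% of all genes passed. Depth differed widely over the list: in the 429 E7.5 cells the 23 genes held from 0 (Mx1) to 540 transcripts (Xaf1) with a median of 36, and 8 of them, Isg15, Ifit1, Ifit3 and Irf7 included, held under 10.

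Of 9 genes for interferon receptors and their kinases, 5 were testable between stages, and Ifnar2, Ifngr1, Ifngr2 and Jak1 rose, with a list median of 1.17 against 0.03 over all genes, of which 20% rose. Ifnar2, a subunit of the type I interferon receptor, rose by 1.40 (SE 0.257, adjusted p = 0.000201), and was higher in the Mesp1 than in the Sox2 class of E7.5 by 1.76 (SE 0.509, adjusted p = 0.0234). Only 2 genes of this list were testable in that class comparison, and the other changed by 0.05. Other Ifitm genes with a row, Ifitm5, Ifitm7 and Ifitm10, had 22, 31 and 5 transcripts in all E7.5 cells and passed no filter. Of 16 neighbours of the gene cluster, 8 were testable between stages. Lrrc56 and Athl1 rose and Psmd13 fell, a count near the 38.8% of all genes that passed, at −0.36 to 1.6 over the 8, with a median of 0.23. None of 6 passed with edgeR between the Mesp1 and Sox2 classes of E7.5 (−0.34 to 0.21, 0 at an unadjusted p under 0.05). With 6.76% of all genes passing there, this says nothing particular about the neighbours. Against the Foxa2 class, Lrrc56 was lower in the Mesp1 class (a log2 change of −2.55, SE 0.542, adjusted p = 0.00113). It was 1 of 6 testable neighbours there, where 8.05% of all genes passed.

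Genes of nascent mesoderm were higher in the class with the most Ifitm1. Of 14 testable genes of a list of 17, 13 were higher in the Mesp1 than in the Sox2 class of E7.5 and none lower, with a median of 3.51 against 0.02 over all genes, of which 6.76% passed in either direction. Examples are Fn1, which encodes fibronectin, at 3.57 (SE 0.344, adjusted p = 3.58e-10), Pdgfra, a growth factor receptor of mesoderm, at 3.46 (SE 0.397, adjusted p = 2.05e-08), and Tbx6, a T-box factor of paraxial mesoderm, at 4.54 (SE 0.657, adjusted p = 2.77e-06). At E6.75, 12 of 14 were higher in the Mesp1 class than in the Sox2 class, with a median of 3.36, where 3.51% of all genes passed. In the E7.5 T class against the Sox2 class, 5 of 14 were higher, with a median of 1.44, where 0.714% of all genes passed. The calls of that comparison over all genes fell from 54 to 6 without replicate 4.

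The genes most like each member were listed by Pearson r over 35 class sums of 11 E7.5 libraries, each library's mean taken off, among 7562 genes. Ifitm1 was most like Gm7676 (r = 0.93), Laptm4b (0.89), Gabbr2 (0.88), Dll3 (0.87), a Notch ligand of presomitic mesoderm, and Lef1 (0.86), a nuclear partner of beta-catenin. Gm7676 is annotated as a processed pseudogene and shares an unbroken stretch of 80 bases with Ifitm1 transcripts, so reads of Ifitm1 may have been counted for it. The genes most like Ifitm2 were Siva1 (0.70), Fbrsl1, Sod1, Hypk and Ndrg3 (0.68 to 0.67), and those most like Ifitm3 were Sdhaf2 (0.67), E130012A19Rik (0.66), Ak3, Fbxw7 and Klhl24 (0.59 to 0.56). Between members r was 0.01 for Ifitm1 and Ifitm2, 0.30 for Ifitm1 and Ifitm3, and 0.24 for Ifitm2 and Ifitm3. These sums share libraries and depth, and the values are descriptions.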

How the data were processed

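The authors deposited 1 table per library of expected counts: transcripts per gene and cell barcode, in which observed UMIs had been corrected for collisions among 4096 UMI sequences, as every value shows. Per the submitters' processing notes, bcl2fastq 2.17.1.14 and BWA 0.6.2-r126 were used; the build, the annotation and the use of strand were not given in the sources used here. The unused 96 of 192 barcodes, 74 spike-ins and 22 mitochondrial rows were left out of depth and tests. Expected counts were rounded, kept at 2000 or more transcripts a cell, and summed per library and class (at least 3 cells; at least 10 for all cells). No doublet caller was run on these picked or sorted cells.

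Sums were tested with edgeR 4.0.16 in R 4.3.3 (TMM, filterByExpr, quasi-likelihood, Benjamini-Hochberg adjustment over all genes at 0.05), with the library as a block in class comparisons. DESeq2 1.42.0, observed UMIs, thinning, other filters and gates and leaving out each library were alternatives. On simulated data the test recovered 93% of 4-fold changes between stages, 84% between the Mesp1 and Sox2 classes of E7.5 and 63% between those of E6.75. For 2-fold changes it recovered 60%, 28% and 12%. The simulation gave every gene the same spread and let libraries differ only in their totals. It changed only genes above a floor of transcripts. These rates need not hold for the real sums, whose spread between libraries was not simulated. The depth of a library bounds its precision. Intervals of shares are exact (Clopper-Pearson) and cover counting error only.

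The 3 members, the gene lists and the tests were chosen with earlier results of these data known. Named genes are the members, the listed genes that passed (up to 8 a list) and the 5 genes most like each member. The lists are other Ifitm genes, cluster neighbours, interferon-stimulated genes, interferon receptors, germ cell genes and nascent mesoderm genes. Of the germ cell list, 2 of 8 genes were testable between the Mesp1 and T classes of E7.5, and both were lower in the Mesp1 class: Tfap2c (a log2 change of -2.09, adjusted p = 0.0229) and Kit (-1.66, adjusted p = 0.0114), where 2.43% of all genes were lower.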

Additional observations from a re-analysis of the deposited data

Results flagged for a closer look

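Among the 21 groups of 4 to 10 libraries examined, 4 values of a single library stood far from the rest. Chance gives about 1 in 20 groups. The groups share libraries and cells, so the 4 values are not independent and were not tested against that rate. Ifitm1 in the E6.75 Sox2 class was 17.2 CPM in replicate 1_11, against 11.5 in the next library and 8.59 in the lowest. Ifitm2 in the E7.5 T class was 313 CPM in replicate 9, against 155 in the next, and Ifitm3 there was 104 against 41.7. That class of replicate 9 held 3 cells, with 6 Ifitm2 and 2 Ifitm3 transcripts. Ifitm3 in the E7.5 Foxa2 class was 42.5 CPM in replicate 6, against 18.1 in the next, from 3 cells.

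Transcripts of the members were also present outside the kept cells. The unused barcodes of the 18 libraries held 31.0 Ifitm1, 15.0 Ifitm2 and 5.001 Ifitm3 transcripts (corrected for UMI collisions), which is 0.758%, 0.491% and 0.826% of the amounts in used barcodes. Over all nuclear genes, used barcodes held from 96.7% (E7.5 replicate 10) to 99.97% (E6.75 replicate 1_11) of a library's transcripts. Transcripts in unused barcodes were thus not particular to the members. Used barcodes with under 2000 transcripts held 5 Ifitm2 transcripts at E6.75 over 33 barcodes. At E7.5, 723 such barcodes held 102 Ifitm1, 37 Ifitm2 and 8 Ifitm3 transcripts, or 390, 141 and 30.6 CPM. These exceed the 3 counts that a value of 0 allows.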

How the results depend on the processing

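Of 669 alternative values for 35 results on the members, 643 kept their direction and their side of the threshold, and 27 results had no alternative that changed them. These include every Ifitm1 fold change except the E7.5 T to Sox2 and lateral to paraxial comparisons. The calls below changed, and the cause was not tested. Ifitm1 between the E7.5 T and Sox2 classes was 1.38 with DESeq2, 1.45 without the replicate block and 1.43 in cells of at least 5000 transcripts, and ran from 1.02 to 1.88 when each library was left out. Ifitm3 between the E6.75 Mesp1 and Sox2 classes was 1.42 with DESeq2, 1.17 without the replicate block and 1.69 with gates at 2 transcripts, and 1.31 to 1.53 with each library left out. Ifitm3 between the E6.75 Mesp1 and Foxa2 classes came to pass at 1.29 with no filter and 1.45 with at least 5 cells, and ran from 1.01 to 1.45 with libraries left out. Ifitm3 between stages in the Mesp1 class was −1.14 with no filter and −1.30 with gates at 2, and −1.27 to −0.76 with libraries left out. Ifitm1 between lateral and paraxial gates came to pass at −0.74 with at least 5 cells and ran from −0.77 to −0.32 with libraries left out.

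Values that changed sign had not passed. Ifitm2 between the E6.75 T and Sox2 classes was −0.0087 with no filter, −0.0538 with gates at 2 and −0.0818 to 0.10 with libraries left out. Between the E6.75 Mesp1 and Foxa2 classes it was 0.0102 with gates at 2, and between lateral and paraxial gates −0.0410 with at least 5 cells. Of the differences between members, Ifitm1 against Ifitm3 in the E7.5 T and Sox2 classes turned to 0.38 with a pseudocount of 10, and Ifitm2 against Ifitm3 at E6.75 ran from −0.38 to 0.15 with libraries left out, the latter without replicate 2_9.

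Gates at 2 transcripts moved the E6.75 Ifitm1 differences of the Mesp1 class to 3.76 (Sox2) and 4.38 (Foxa2), and its stage difference to 1.61. Counts of genes passing moved more than 1.5 times in several settings. Leaving thinning aside, they ran from 6 to 149 (54 in the fit as designed) between E7.5 T and Sox2, 301 to 691 (511) between Mesp1 and Sox2, 214 to 520 (336) between Mesp1 and T, and 346 to 869 (609) between Mesp1 and Foxa2. At E6.75 they ran from 25 to 129 (59), 86 to 633 (320) and 130 to 433 (303) for T to Sox2, Mesp1 to Sox2 and Mesp1 to Foxa2. For the interaction they ran from 1 to 32 (10), for the Mesp1 class between stages 228 to 942 (786) and for the gates 34 to 223 (65). Thinning to 2000 transcripts left 596 genes between stages, 49 in the Sox2 class between stages and at most 13 in any other comparison. It gave no value for members too sparse to be tested. Depth limits detection of the sparse members: at 2000 transcripts Ifitm3 was found in 0% of E7.5 Sox2 class cells, and at E6.75 Ifitm1 was found in 1.32% and Ifitm3 in 2.12% of them.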
